A study of Rattus norvegicus with 18 samples.

Results

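The 10 genes Atf4, Atf3, Ddit3, Trib3, Chac1, Asns, Xbp1, Herpud1, Sesn2 and Psat1, which belong to the endoplasmic reticulum (ER) stress and amino acid responses, were followed in rat kidney during exposure to cadmium. They were chosen by name, as genes of these responses, from the 22084 genes measured. Each was read from 1 probe set that names no other gene. Whole kidneys of Sprague-Dawley rats were taken after 1 day, 6 weeks or 12 weeks of treatment with cadmium chloride (CdCl2) or normal saline, and their total RNA was hybridised to Affymetrix arrays. The labels give 3 biological replicates in each of 6 groups, 18 arrays in all, with 1 array for each replicate: cadmium and saline at 1 day, cadmium and saline at 6 weeks, and cadmium and saline at 12 weeks. The labels used here give neither the dose nor the route of cadmium, nor the age or sex of the rats, nor a batch. The labels name no allele or transgene, so the groups differ by agent and time alone as labelled. The question the design poses for these genes is whether cadmium moved them, and at which time.

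When unfolded proteins load the ER, its sensors respond: the kinase PERK (Eif2ak3), the kinase and RNase IRE1 (Ern1) and the membrane-bound factor ATF6. PERK and related kinases, such as GCN2 (Eif2ak4), which responds to missing amino acids, phosphorylate eIF2alpha. This slows translation in general and favours that of ATF4, the factor that switches on amino acid synthesis, amino acid carriers and tRNA synthetases. IRE1 splices the XBP1 message and ATF6 is cut free, and both raise ER chaperones and the machinery of ER-associated degradation (ERAD), so the amino acid branch can act without the chaperone branch. Much of the control of ATF4 and XBP1 lies in translation, splicing and protein stability, which an array probe set for the whole transcript does not read.

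The promoter windows below are shown because they hold letters that match DNA elements known for ATF4 and for ATF6 with XBP1. They come from RefSeq promoters of rat build GRCr8, which run from 250 bases before to 50 bases after the start of each gene, and 9 of the 10 genes were in that table. Each window is written 5′ to 3′ on the strand of its gene, and capitals mark the motif.
Chac1 (chr3:126795948-126795987, plus strand, motif 167 bases before the start): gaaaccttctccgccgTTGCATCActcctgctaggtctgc
Trib3 (chr3:161275531-161275570, minus strand, motif 21 bases before the start): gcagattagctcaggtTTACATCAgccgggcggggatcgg
Herpud1 (chr19:10614868-10614907, minus strand, motif 184 bases before the start): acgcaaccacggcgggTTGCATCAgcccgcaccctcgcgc
Xbp1 (chr14:84604542-84604592, plus strand, motif 65 bases before the start): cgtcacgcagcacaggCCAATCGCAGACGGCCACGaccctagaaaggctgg
The first 3 windows hold the C/EBP-ATF response element, searched as TGATGNAA on both strands. It was found in 3 of the 9 promoters, against 3.98% of 33469 promoters in the table, and in 14 of 62 other genes of these pathways. The window of Xbp1 holds the ER stress response element, searched on both strands as CCAAT and CCACG with 9 bases of any kind between them. It was found in 1 of the 9 promoters, against 0.0657% of all promoters and 7 of 62 other pathway genes. The unfolded protein response element TGACGTGG and the cyclic AMP response element TGACGTCA, which are present in 0.595% and 1.83% of promoters, were in none of the 9 windows. These motifs do not overlap each other in the 4 windows, and a match describes letters and not a bound site.

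The values are log2 signals as deposited. They run from 1.78 to 19.93, with array medians from 4.03 to 4.26, so a difference of log2 signals is not a calibrated fold change, and signals of different genes are not set against each other. A background level of 4.22 was taken as the 95th percentile of the mean signals of 1276 odorant and vomeronasal receptor genes. Arrays of the same group correlated at 0.982 to 0.995 and arrays of different groups at 0.979 to 0.995 over all genes. All 10 proximal tubule and all 8 distal nephron and collecting duct markers were above background and all 3 adrenal cortex markers measured were at or under it. Cadmium against saline was tested in limma over all genes, and a gene passed at an adjusted p under 0.05, which 0 genes did at 1 day (433 genes, 1.96%, had an unadjusted p under 0.05), 9 genes did at 6 weeks (0.0408%) and 72 genes did at 12 weeks (0.326%).

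None of the 10 genes passed that test at any time: the smallest adjusted p was 1.00 at 1 day, 0.567 at 6 weeks and 0.438 at 12 weeks. At an unadjusted p under 0.05 the number was 0 of 10 at 1 day, 0 of 10 at 6 weeks (9.88% of all genes) and 2 of 10 at 12 weeks (9.03% of all genes). The median difference of the 10 genes, cadmium minus saline, was -0.00 at 1 day, 0.24 at 6 weeks and -0.03 at 12 weeks, beside -0.01, -0.00 and 0.01 over all genes. Chac1 was above background in 1 of 18 arrays, Trib3 in 14 and Atf3 in 15, and the other 7 genes were above it in all 18. In whole tissue, fewer cells of a type and less RNA per cell cannot be told apart.

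**Figure D1:**
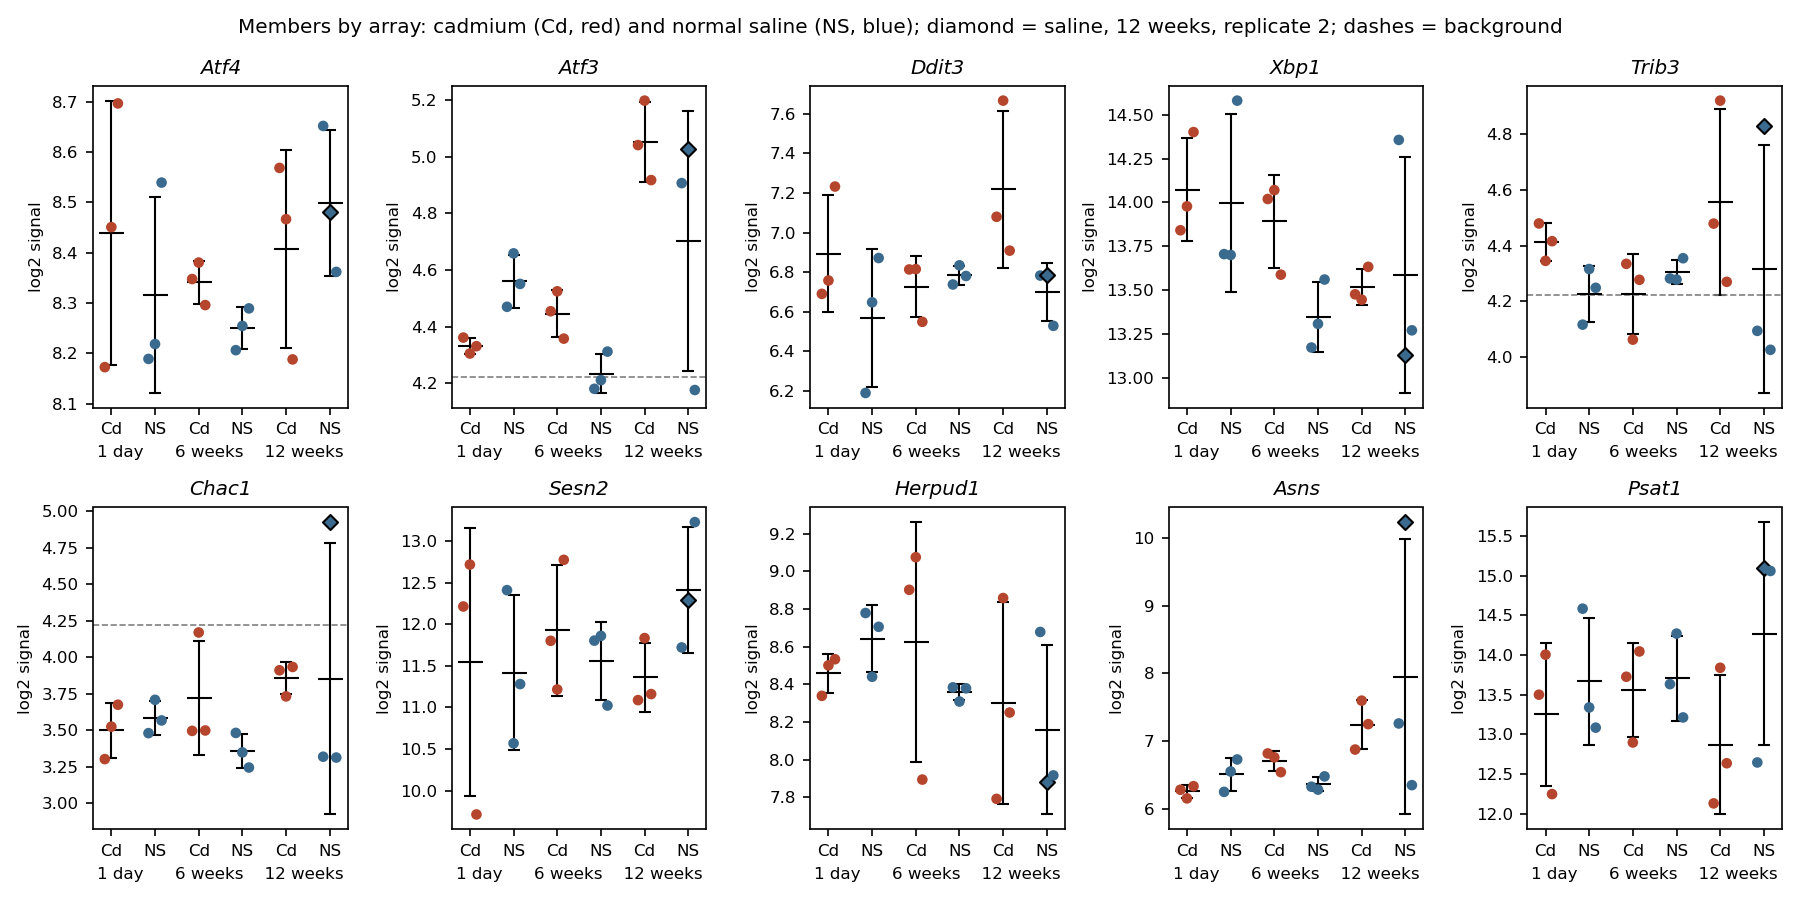
Log2 signal (vertical axis) of each of the 10 genes in the 18 arrays, by treatment (Cd, cadmium, red; NS, normal saline, blue) and time; points are arrays, long ticks are group means, bars are the SD (n = 3), the dashed line is the background level of 4.22 and the diamond is saline, 12 weeks, replicate 2. Asns reached 10.24 in that saline array and no more than 7.60 in the other 17, while Atf4 stayed between 8.17 and 8.70 in all 18.

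Among the transcription factors, Atf4 varied least. Atf4 had 8.17, 8.45 and 8.70 in cadmium kidneys at 1 day, against 8.19, 8.22 and 8.54 in saline kidneys. At 6 weeks it had 8.35, 8.38 and 8.30 in cadmium kidneys and 8.21, 8.25 and 8.29 in saline kidneys. At 12 weeks it had 8.57, 8.47 and 8.19 in cadmium kidneys and 8.65, 8.48 and 8.36 in saline kidneys. The groups overlapped at 1 day and at 12 weeks, and at 6 weeks the cadmium arrays lay just above the saline arrays, by 0.09 between the means. The 95% intervals of the difference were -0.17 to 0.41 at 1 day, -0.20 to 0.38 at 6 weeks and -0.38 to 0.20 at 12 weeks.

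Atf3, a factor that ATF4 and other stress signals induce, was near background in most groups and highest at 12 weeks. It had 5.04, 5.20 and 4.92 in cadmium kidneys at 12 weeks, against 4.91, 5.03 and 4.18 in saline kidneys. The 3 cadmium arrays sat together, while 2 saline arrays lay at the same height and replicate 3 lay under background. The difference was 0.35 (SE 0.16, 95% interval 0.0047 to 0.69), with an unadjusted p of 0.0473 and an adjusted p of 0.546 in limma. It was 0.086 without saline replicate 3. At 6 weeks Atf3 had 4.45, 4.53 and 4.36 in cadmium kidneys and 4.18, 4.21 and 4.31 in saline kidneys, and at 1 day it had 4.36, 4.31 and 4.33 in cadmium kidneys and 4.47, 4.66 and 4.55 in saline kidneys. The cadmium arrays were all above the saline arrays at 6 weeks (difference 0.21) and all below them at 1 day (difference -0.23). The difference at 6 weeks minus that at 1 day was 0.44 (SE 0.23, adjusted p = 0.748), and that at 12 weeks minus 1 day was 0.58 (SE 0.23, adjusted p = 0.971), so neither passed in limma.

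Ddit3, which encodes CHOP, the factor tied to cell death in prolonged ER stress, had the smallest p of the 10 genes for cadmium against saline. It had 7.08, 7.67 and 6.91 in cadmium kidneys at 12 weeks, against 6.78, 6.79 and 6.53 in saline kidneys. All 3 cadmium arrays were above all 3 saline arrays, as they were for 7.92% of all genes, and replicate 2 of cadmium was the highest of the 18 arrays. The difference was 0.52 (SE 0.20, 95% interval 0.09 to 0.95), with an unadjusted p of 0.0219 and an adjusted p of 0.438 in limma. At 6 weeks Ddit3 had 6.81, 6.82 and 6.55 in cadmium kidneys and 6.74, 6.83 and 6.78 in saline kidneys, and at 1 day it had 6.69, 6.76 and 7.23 in cadmium kidneys and 6.19, 6.65 and 6.87 in saline kidneys. At these times the groups overlapped, with differences of -0.06 and 0.32. The difference at 12 weeks minus that at 6 weeks was 0.58 (SE 0.29, adjusted p = 0.509).

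Xbp1, the factor of the IRE1 branch, had its widest gap at 6 weeks, with 14.02, 14.07 and 13.59 in cadmium kidneys, against 13.17, 13.31 and 13.56 in saline kidneys. Cadmium replicate 3 was only just above saline replicate 3, and the difference of 0.55 (SE 0.29, 95% interval -0.08 to 1.18) did not pass (adjusted p = 0.567 in limma). At 1 day Xbp1 had 13.84, 13.98 and 14.40 in cadmium kidneys and 13.71, 13.70 and 14.58 in saline kidneys, and at 12 weeks it had 13.48, 13.45 and 13.63 in cadmium kidneys and 14.36, 13.13 and 13.27 in saline kidneys. The highest saline array lay above every cadmium array at both of these times.

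**Figure D2:**
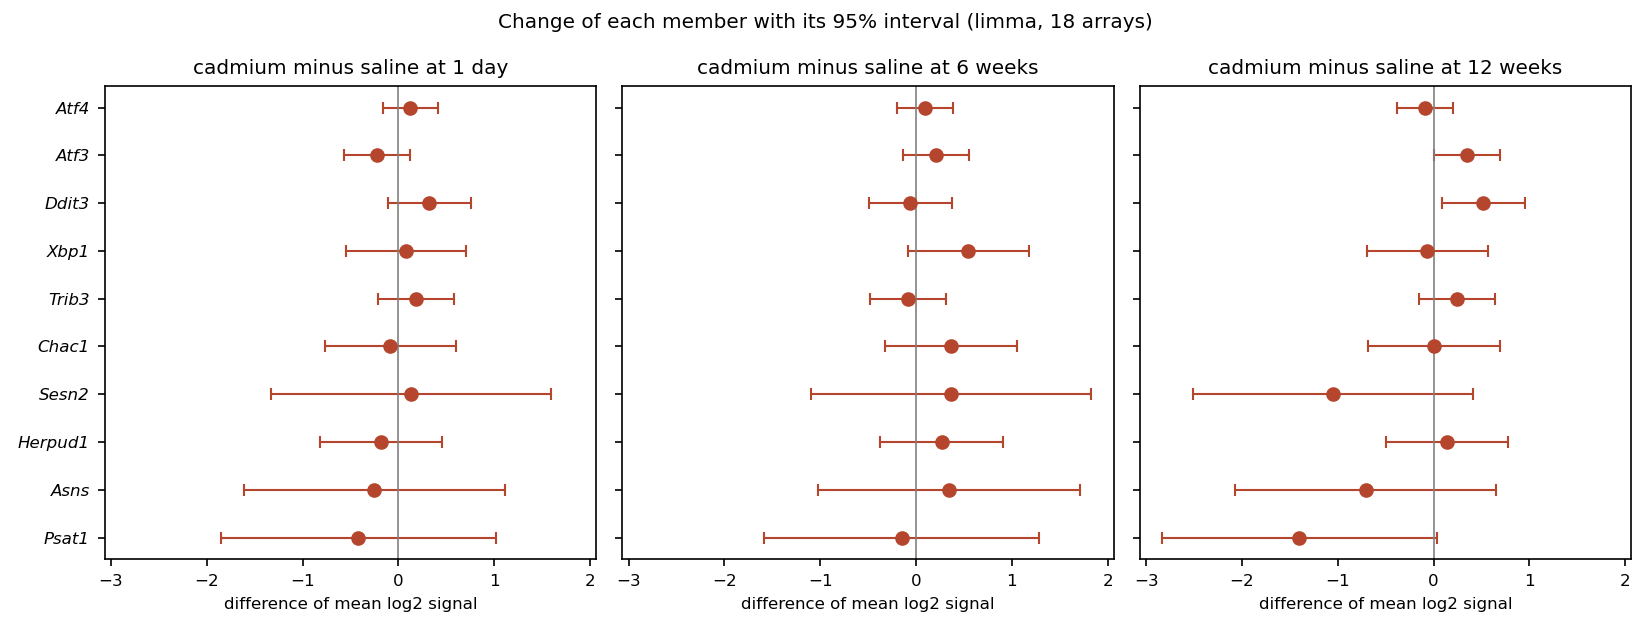
Difference of the mean log2 signal, cadmium minus saline (horizontal axis), for each of the 10 genes at 1 day, 6 weeks and 12 weeks, with points for the difference and bars for its 95% interval from limma. The intervals of Ddit3 (0.09 to 0.95) and Atf3 (0.0047 to 0.69) at 12 weeks lie above 0, and the intervals of Asns, Sesn2 and Psat1 are the widest.

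Trib3, a pseudokinase that CHOP and ATF4 induce and that holds ATF4 back, had 4.48, 4.92 and 4.27 in cadmium kidneys at 12 weeks, against 4.09, 4.83 and 4.03 in saline kidneys. Replicate 2 of both treatments was high and the groups overlapped, with a difference of 0.24 (SE 0.19, adjusted p = 0.748 in limma). At 1 day all 3 cadmium arrays (4.48, 4.35 and 4.42) were above all 3 saline arrays (4.12, 4.32 and 4.25), as they were for 2.35% of all genes, by 0.19 between the means. At 6 weeks Trib3 had 4.33, 4.06 and 4.28 in cadmium kidneys and 4.28, 4.28 and 4.35 in saline kidneys.

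Chac1, which encodes an enzyme that breaks down glutathione and is a target of ATF4, had 3.91, 3.73 and 3.93 in cadmium kidneys at 12 weeks, against 3.32, 4.92 and 3.31 in saline kidneys. Replicate 2 of saline was the only array above background, and at 1 day and 6 weeks the values lay between 3.24 and 4.17 in both treatments. No difference between treatments is therefore read for Chac1, though its 3 cadmium arrays at 6 weeks (3.49, 4.17 and 3.50) were the higher ones.

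Sesn2, a sensor of leucine that restrains mTORC1 and is induced by ATF4, varied more between replicates than between treatments. It had 11.09, 11.83 and 11.16 in cadmium kidneys at 12 weeks, against 11.72, 12.29 and 13.23 in saline kidneys. One cadmium array exceeded the lowest saline array, and the difference of -1.05 (SE 0.68, 95% interval -2.52 to 0.41, adjusted p = 0.694 in limma) did not pass. At 6 weeks Sesn2 had 11.80, 11.22 and 12.77 in cadmium kidneys and 11.80, 11.86 and 11.02 in saline kidneys. At 1 day it had 12.21, 12.72 and 9.71 in cadmium kidneys and 12.41, 10.57 and 11.28 in saline kidneys, where cadmium replicate 3 was the lowest of the 18 arrays.

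Herpud1, a membrane protein of ERAD that IRE1, ATF6 and ATF4 signals induce, had 7.79, 8.86 and 8.25 in cadmium kidneys at 12 weeks, against 8.68, 7.88 and 7.92 in saline kidneys. At 6 weeks it had 8.90, 9.08 and 7.90 in cadmium kidneys, spread on both sides of the saline kidneys at 8.38, 8.31 and 8.38. At 1 day it had 8.34, 8.50 and 8.53 in cadmium kidneys and 8.78, 8.44 and 8.71 in saline kidneys. The groups overlapped at each time, and the differences were -0.18 at 1 day, 0.27 at 6 weeks and 0.14 at 12 weeks (SE 0.30 each).

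The amino acid enzymes Asns and Psat1 had the widest ranges with Sesn2. Asns, asparagine synthetase, had 6.87, 7.60 and 7.25 in cadmium kidneys at 12 weeks, against 7.26, 10.24 and 6.35 in saline kidneys. Saline replicate 2 lay far above every other array, and the other 2 saline arrays lay below the highest cadmium array. The difference was -0.71 (SE 0.64, adjusted p = 0.791 in limma) with that array and 0.44 (adjusted p = 0.672) without it. Asns had 6.82, 6.76 and 6.54 in cadmium kidneys at 6 weeks, all above the saline kidneys at 6.32, 6.28 and 6.48, with a difference of 0.34 (SE 0.64, adjusted p = 0.878). That SE pools the spread of all 6 groups. The SD of Asns was 0.15 in cadmium and 0.10 in saline kidneys at 6 weeks, and 2.04 in saline kidneys at 12 weeks. At 1 day Asns had 6.28, 6.15 and 6.33 in cadmium kidneys and 6.25, 6.55 and 6.73 in saline kidneys, and these overlapped. Ordered by mean, Asns in cadmium kidneys at 12 weeks was separated without overlap from Asns in cadmium kidneys at 6 weeks, and for each of the other 9 genes every group overlapped its neighbour in the order.

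Psat1, phosphoserine aminotransferase of the serine pathway, had 12.13, 13.84 and 12.64 in cadmium kidneys at 12 weeks, against 12.65, 15.10 and 15.06 in saline kidneys. The lowest saline array was level with a cadmium array, and the difference of -1.40 (SE 0.67, 95% interval -2.83 to 0.03) had an adjusted p of 0.563 in limma. The mean signal of the 10 proximal tubule markers was 15.79, 16.95 and 14.58 in cadmium kidneys and 15.44, 17.40 and 17.40 in saline kidneys, with 0 of the 10 markers higher in cadmium and 0 passing the test. In saline kidneys replicate 1 was lowest for both Psat1 and the markers, while in cadmium kidneys the lowest was replicate 1 for Psat1 and replicate 3 for the markers. With that marker signal as a covariate, the 12-week difference was -0.60 (SE 0.36, adjusted p = 0.707) for Psat1 and -0.27 (SE 0.42, adjusted p = 0.926) for Sesn2. The lowest values of both genes in cadmium kidneys at 1 day, 12.25 for Psat1 and 9.71 for Sesn2, were in replicate 3, which also had the lowest proximal tubule signal of its group, 15.45. All 8 distal nephron and collecting duct markers were higher in cadmium kidneys at 12 weeks, by 0.52 on average, with 0 passing. Their mean signal overlapped, at 14.05 to 15.50 in cadmium kidneys and 13.79 to 14.29 in saline kidneys. At 1 day Psat1 had 13.50, 14.00 and 12.25 in cadmium kidneys and 14.58, 13.34 and 13.08 in saline kidneys, and at 6 weeks it had 13.73, 12.90 and 14.04 in cadmium kidneys and 13.63, 14.27 and 13.21 in saline kidneys. The groups overlapped at both times. The probe set may also read Psat1-ps1, a pseudogene copy whose own probe set correlated with it at r = 0.96.

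Leaving out Chac1, which was under background in all 6 arrays, 4 of the other 9 genes had all 3 cadmium arrays above all 3 saline arrays at 6 weeks (Atf4, Atf3, Asns and Xbp1) and 0 had them all below, where 10.5% of all genes were above and 8.04% were below. One gene was above and 1 below at 1 day, where the shares of all genes were 2.35% and 2.88%, and 1 was above and 0 below at 12 weeks, where they were 7.92% and 7.07%. The saline kidneys of 6 weeks had the lowest mean of the 6 groups for Atf4, Atf3 and Xbp1, and ranked 5 of 6 for Asns. The cadmium kidneys of 6 weeks ranked 3 for Xbp1 and Asns and 4 for Atf4 and Atf3. Atf3 was above background in only 1 of 3 saline arrays at 6 weeks. Several marker lists separated the treatments at 6 weeks too, in both directions. The mean macrophage marker signal was 6.78 to 7.60 in cadmium kidneys and 6.13 to 6.43 in saline kidneys, with 10 of 11 markers higher and 2 of the 11 at or under background. The mean tubular injury signal was 7.25 to 7.92 in cadmium kidneys and 6.70 to 6.86 in saline kidneys, with 6 of 7 markers higher and 1 of the 7 at or under background. Lymphocyte markers averaged 5.39 to 5.87 in cadmium kidneys and 5.01 to 5.18 in saline kidneys (6 of 7 higher, 3 of the 7 at or under background). Adipose markers averaged 5.52 to 6.05 in cadmium kidneys and 5.08 to 5.42 in saline kidneys (4 of 5 higher, 2 of the 5 at or under background), and red blood cell markers were just apart (4 of 5 higher). Podocyte markers went the other way, with 8.27 to 8.84 in cadmium kidneys and 9.20 to 9.94 in saline kidneys (0 of 3 higher). None of these markers passed the test, and their part in the 6-week values of the 10 genes was not tested.

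The cadmium difference at 1 time minus that at another passed for 0 of the 10 genes in all 3 such contrasts, where 0.00906% of all genes passed at 6 weeks minus 1 day, 0.0408% at 12 weeks minus 1 day and 0.0136% at 12 weeks minus 6 weeks. In the saline kidneys alone, 0 of the 10 genes passed between times. There the shares of all genes that passed were 0.503% for 6 weeks minus 1 day, 0.29% for 12 weeks minus 1 day and 0 for 12 weeks minus 6 weeks, where 8.4% of all genes and 2 of the 10 had an unadjusted p under 0.05. Those 2 were Atf3, with a difference of 0.47 at 12 weeks minus 6 weeks (adjusted p = 0.526), and Asns, with 1.59 (adjusted p = 0.556). Without saline replicate 3 at 12 weeks, the Atf3 difference was 0.73 (SE 0.10) and did pass, with an adjusted p of 0.0322 in limma. Xbp1 was at -0.65 in saline kidneys at 6 weeks minus 1 day (adjusted p = 0.411), and its saline mean at 6 weeks was the lowest of the 6 groups.

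Beside the 10 genes, 74 of 75 listed genes of these pathways were measured. In limma 1 of the 74 passed, at 12 weeks, and 0 passed at 1 day or 6 weeks. That gene was Slc7a11, the cystine carrier of system xc-, which ATF4 and the antioxidant factor NRF2 both induce. It had 4.64, 6.48 and 5.60 in cadmium kidneys at 12 weeks, against 3.62, 4.09 and 3.55 in saline kidneys. All 3 cadmium arrays were above background and all 3 saline arrays under it. The cadmium mean of Slc7a11 lay 1.35 log2 units over the background level, with an SD of 0.92 over the 3 arrays. The fitted difference was 1.82 (SE 0.31, adjusted p = 0.0199 in limma). Slc7a11 lay between 3.55 and 3.98 in the 12 arrays of the earlier times. Its 12-week difference minus that at 6 weeks was 1.68 (SE 0.43, adjusted p = 0.330). The call was lost without saline replicate 1 (adjusted p = 0.0569) or replicate 3 (adjusted p = 0.112) at 12 weeks. It was also lost with only the 6 arrays compared (adjusted p = 0.486 in limma).

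Of the 17 genes of amino acid synthesis and supply, 4 stood higher and 13 lower in cadmium kidneys at 12 weeks, with a median of -0.16 beside 0.01 for all genes. Psph, the enzyme after Psat1 in serine synthesis, had 8.15, 8.21 and 7.42 in cadmium kidneys and 8.36, 10.88 and 10.53 in saline kidneys. The groups did not overlap, as they did not in this direction for 7.07% of all genes, but the difference of -2.00 (SE 0.73) did not pass (adjusted p = 0.404). Without saline replicate 2 it was -1.52, and over the alternatives it ran from -2.78 to -1.15. The lowest saline value, 8.36, was in replicate 1, which also had the lowest proximal tubule signal of its group, 15.44. Cbs, which makes cystathionine, was at -0.71 (adjusted p = 0.567). At 6 weeks 13 of the 17 stood higher with a median of 0.16, and Cth, the enzyme that releases cysteine from cystathionine, had 16.22, 16.57 and 16.23 in cadmium kidneys, against 14.85, 15.44 and 15.06 in saline kidneys. Its difference of 1.23 (SE 0.65) had an adjusted p of 0.561. Cbs was at 0.73 (adjusted p = 0.509) and Aldh1l2, a mitochondrial folate enzyme, was under background in all 18 arrays, so no difference is read for it.

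All 12 tRNA synthetases were measured. At 6 weeks 11 of 12 stood higher in cadmium kidneys, with a median of 0.28 beside -0.00 for all genes, and 6 of them had all cadmium arrays above all saline arrays, as did 10.5% of all genes. The saline kidneys of 6 weeks, which this comparison shares, stood lower than those of 1 day for 10 of the 12, with a median of -0.26 and 0 passing. Wars1, for tryptophan, had 10.23, 10.82 and 10.18 in cadmium kidneys and 9.70, 9.78 and 9.50 in saline kidneys, a difference of 0.74 (SE 0.25, adjusted p = 0.374). Lars1, for leucine, was at 0.41 (adjusted p = 0.514), and Iars1, for isoleucine, at 0.32 (adjusted p = 0.581). At 12 weeks 4 of 12 stood higher, with a median of -0.13. Wars1 then had 9.73, 10.03 and 10.18 in cadmium kidneys and 10.54, 10.85 and 10.21 in saline kidneys, a difference of -0.55 (adjusted p = 0.539) on the other side of 0, also without overlap. The change of the Wars1 difference between these times was -1.30 (SE 0.36, adjusted p = 0.365).

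Of the 19 ER chaperones and ERAD genes measured, 15 were higher in cadmium kidneys at 1 day, with a median of 0.15 beside -0.01 for all genes, and 6 of the 19 had all cadmium arrays above all saline arrays, as did 2.35% of all genes. Hspa5 and Hsp90b1, the main ER chaperones BiP and GRP94, are named here after their values were seen. Hsp90b1 had 15.18, 15.45 and 15.54 in cadmium kidneys at 1 day, against 15.01, 14.72 and 14.81 in saline kidneys, without overlap (difference 0.55, SE 0.16, adjusted p = 1.00). Hspa5 had 14.20, 14.70 and 14.94 in cadmium kidneys and 14.45, 13.88 and 14.25 in saline kidneys, which overlapped. At 6 weeks 17 of 19 were higher, with a median of 0.20. The saline kidneys of 6 weeks, however, stood lower than those of 1 day for 18 of the 19 (median -0.20, 0 passing), and the cadmium difference at 6 weeks exceeded that at 1 day for 8 of the 19 (median -0.07, 0 passing). These contrasts share the saline kidneys of 6 weeks. Pdia6, a disulfide isomerase, had 12.68, 12.67 and 12.64 in cadmium kidneys and 12.09, 12.36 and 11.84 in saline kidneys at 6 weeks, a difference of 0.56 (SE 0.22, adjusted p = 0.429). Sel1l, of the ERAD channel, was at 0.31 (adjusted p = 0.428), and the lectin chaperone Canx at 0.20 (adjusted p = 0.494). At 12 weeks 12 of 19 were higher, with a median of 0.01 and a smallest adjusted p of 0.658 for Sdf2l1 at 0.16. Dnajb9 was then at 0.22 and Dnajc3 at -0.26.

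Among the 11 stress sensors and controls of eIF2alpha, Eif2ak2 (PKR, the kinase that double-stranded RNA activates) had the smallest p for cadmium against saline at 6 and 12 weeks. It had 10.29, 10.03 and 10.21 in cadmium kidneys at 6 weeks, against 9.56, 9.75 and 9.35 in saline kidneys, with no overlap and a difference of 0.63 (SE 0.13, adjusted p = 0.119). At 12 weeks it had 9.88, 9.75 and 9.88 in cadmium kidneys and 9.60, 9.61 and 9.21 in saline kidneys, again without overlap (difference 0.36, adjusted p = 0.386). All cadmium arrays were above all saline arrays for 10.5% of all genes at 6 weeks and 7.92% at 12 weeks. The saline mean of Eif2ak2 was 10.05 at 1 day, 9.55 at 6 weeks and 9.47 at 12 weeks. Its cadmium mean was 9.94, 10.18 and 9.84 at these times. Atf6 was at -0.60 at 12 weeks (adjusted p = 0.532) and Eif2ak4, the amino acid sensor, at -0.20 (adjusted p = 0.694). At 6 weeks Mbtps2, a protease that frees ATF6, was at 0.25 (adjusted p = 0.648) and Eif2s1, eIF2alpha itself, at 0.23 (adjusted p = 0.670). Over the list 2 of 11 stood higher at 1 day (median -0.05), 8 at 6 weeks (median 0.02) and 4 at 12 weeks (median -0.13).

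Of the 15 other targets of ATF4 and CHOP, 6 stood higher at 1 day (median -0.02), 6 at 6 weeks (median -0.01) and 8 at 12 weeks (median 0.01). Gdf15, a secreted stress hormone, had 7.32, 8.21 and 6.87 in cadmium kidneys at 12 weeks, against 6.31, 6.43 and 5.45 in saline kidneys. All 3 cadmium arrays were above the other 15 arrays for this gene, and the difference of 1.41 (SE 0.32, 95% interval 0.72 to 2.09) had an adjusted p of 0.111. At 6 weeks Gdf15 was at 0.47 (adjusted p = 0.647). Bcl2l11, the death protein BIM, was at 0.25 (adjusted p = 0.532) and Tnfrsf10b, a death receptor that CHOP induces in human cells, at -0.38 (adjusted p = 0.542) at 12 weeks. Tnfrsf10b was at -0.27 (adjusted p = 0.626) and Cebpg, a partner of ATF4, at -0.12 (adjusted p = 0.674) at 6 weeks.

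**Figure D3:**
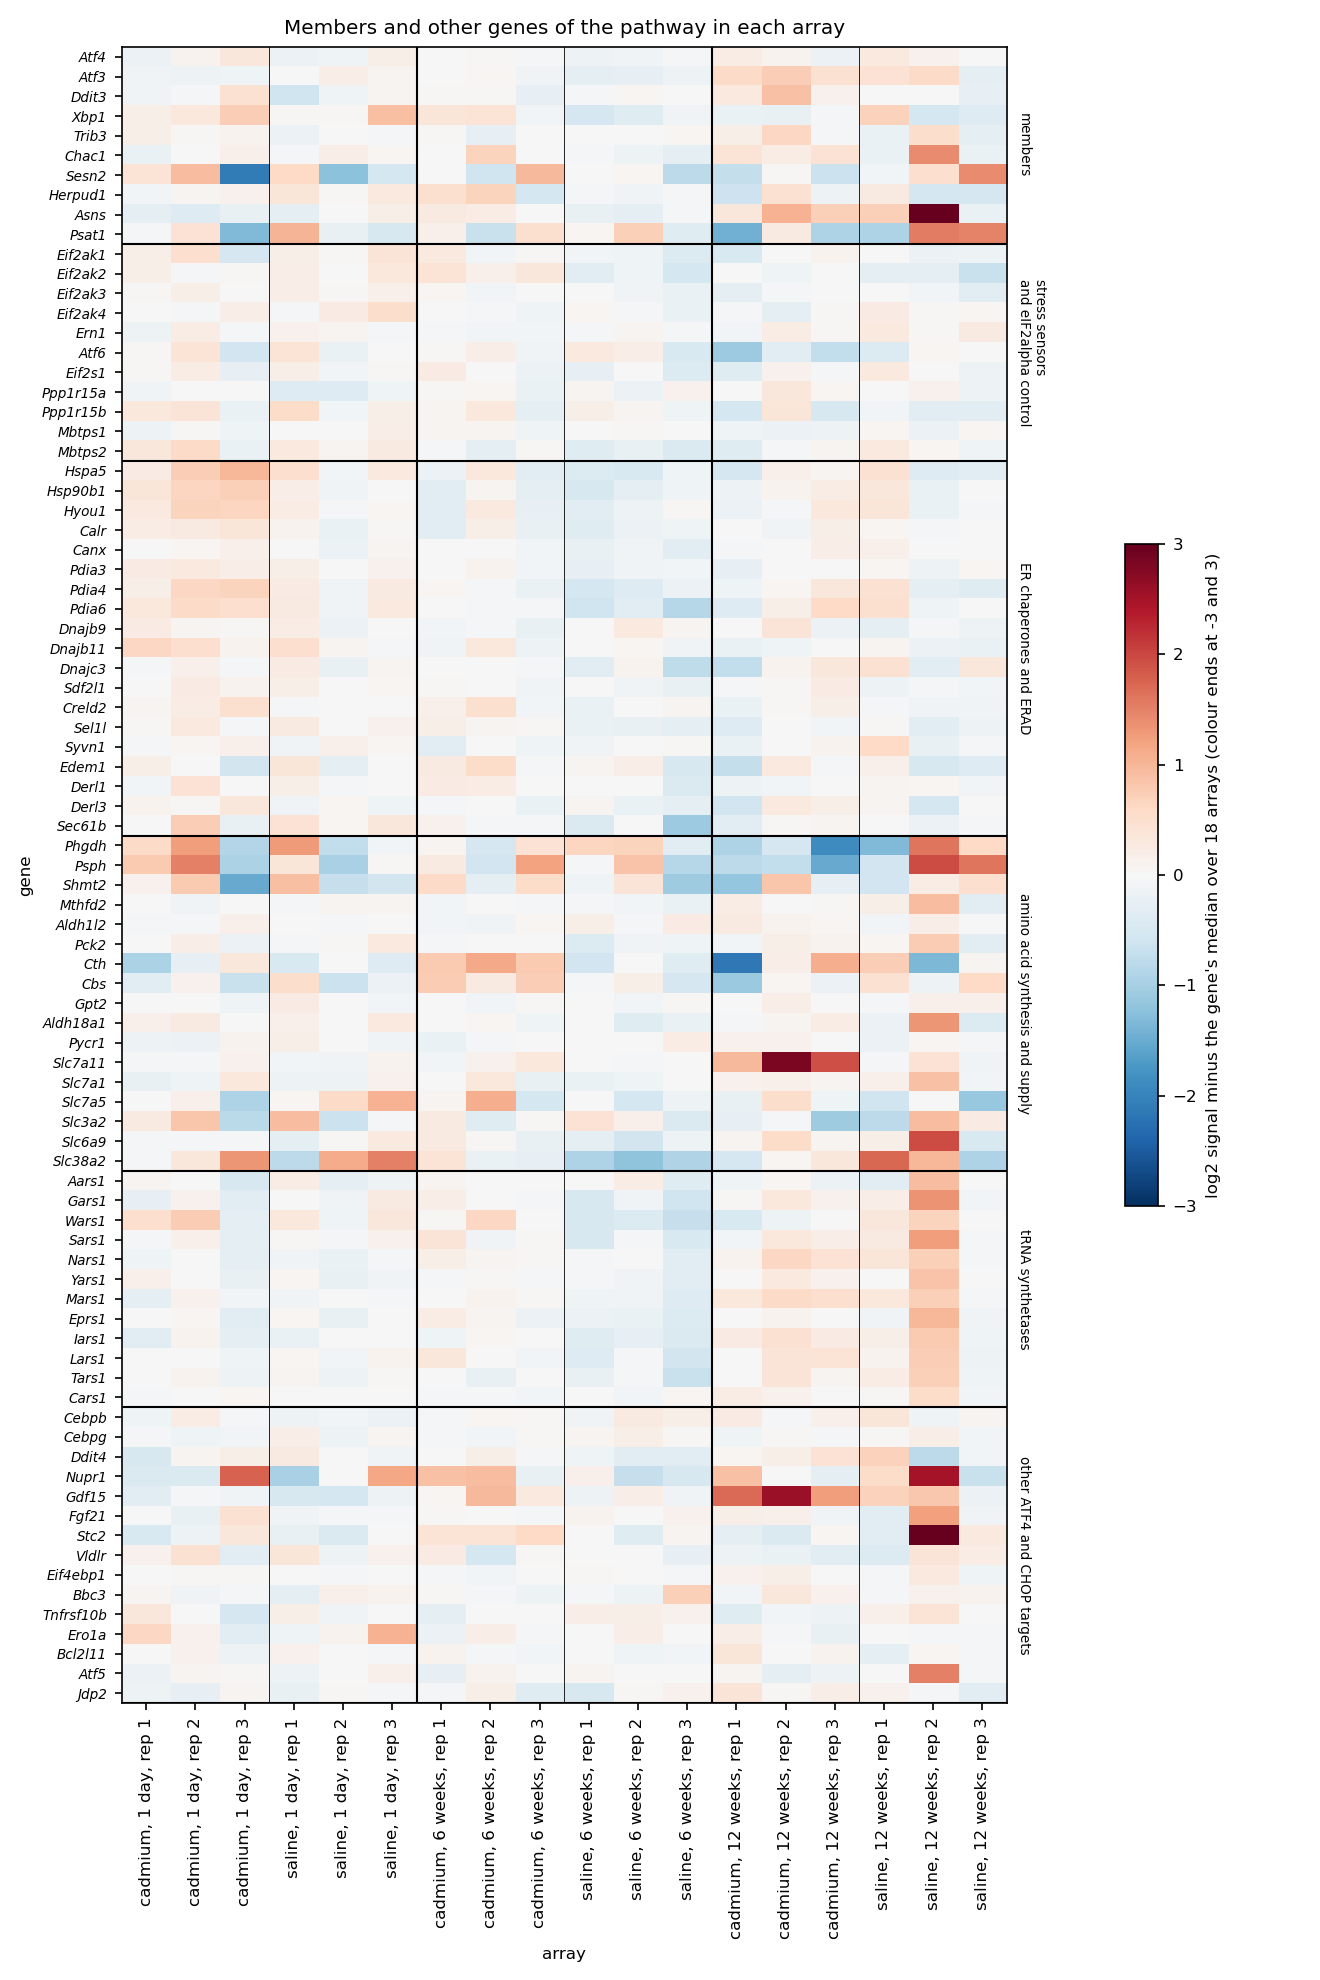
Log2 signal minus the gene's median over the 18 arrays (colour, ends at -3 and 3) for the 10 genes, labelled members, and the 74 other pathway genes (vertical axis) in each array (horizontal axis). The column of saline, 12 weeks, replicate 2 holds the highest value of 11 of 12 tRNA synthetases, of Asns and of Stc2, and is pale or blue for the ER chaperones.

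One saline array held the highest values of many amino acid response genes. Saline replicate 2 at 12 weeks held the highest of 18 values for 3 of the 10 genes, Chac1, Asns and Psat1, beside 4.57% of all genes. Cadmium replicate 2 at 12 weeks likewise held the highest for 3 of the 10, Atf3, Ddit3 and Trib3, beside 5.45% of all genes. The saline array was also the highest for 11 of 12 tRNA synthetases and for 8 of 17 genes of amino acid synthesis and supply. It was the highest too for 6 of 15 other targets of ATF4 and CHOP. It was the highest for 0 of 19 ER chaperones and ERAD genes and for 0 of 11 sensors. The genes named next were chosen after their values in this array were seen. Stc2, a secreted glycoprotein, had 10.97 in it and at most 5.97 in the other 17 arrays, a gap wider than that of Asns with 10.24 and at most 7.60. Slc6a9, a glycine carrier, had 8.44 against at most 7.03 elsewhere, and Atf5, a factor related to ATF4, had 6.97 against at most 5.62. Nupr1, a stress-induced chromatin protein, had 8.36 and at most 7.64 elsewhere, and Aldh18a1, of proline synthesis, had 7.52 and at most 6.48. Gars1, for glycine, had 11.74 and at most 10.71, and Sars1, for serine, had 11.19 and at most 10.31. Other genes of these lists were low in this array. Ddit4, listed with the targets of ATF4 and CHOP, had 5.835, its lowest of the 18 arrays. Cth had 14.07, against a median of 15.44 in the other 17 arrays. Atf4 itself had 8.48 in this array, within its range elsewhere, Ddit3 had 6.79 and Xbp1, at 13.13, was at its lowest of the 18 arrays. The mean proximal tubule signal of this array, 17.40, equalled that of saline replicate 3 at 12 weeks, and its mean macrophage signal, 6.31, lay in the range of the other saline arrays. Its mean adipose signal, 4.76, was the lowest of the 18 arrays, the next lowest being 5.08. What set this kidney apart was not tested.

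**Figure D4:**
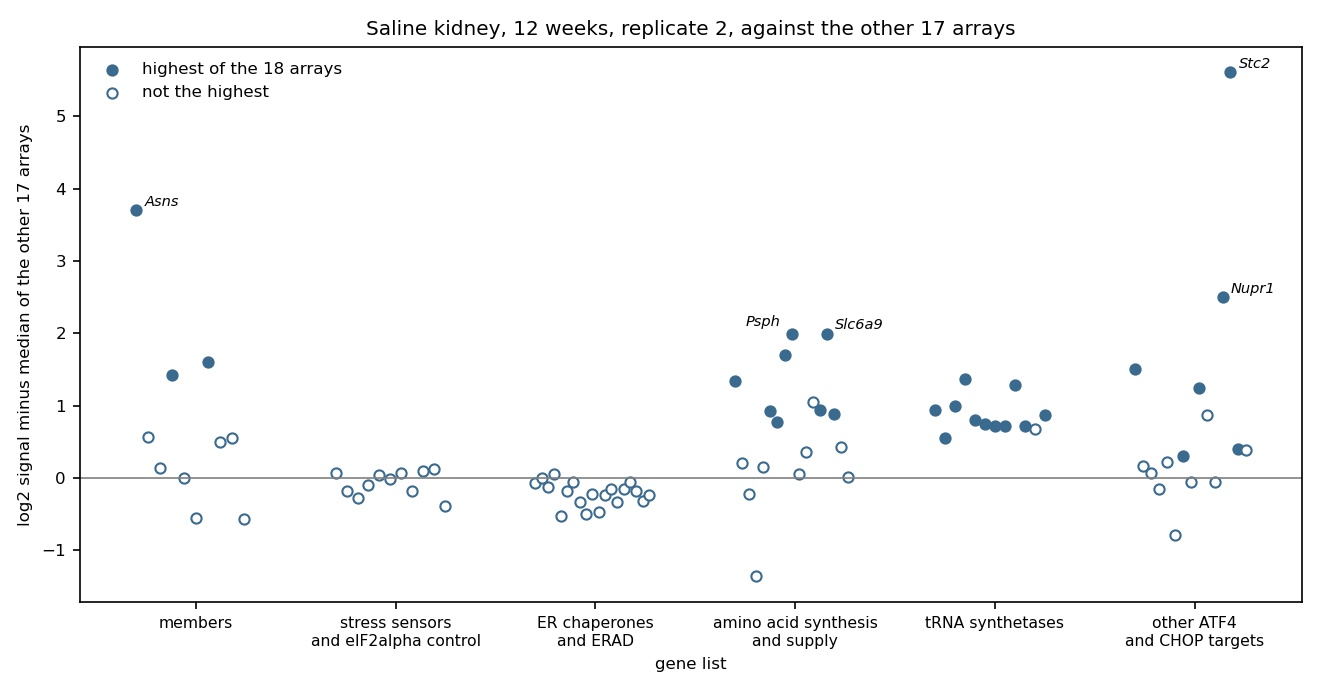
Log2 signal in saline, 12 weeks, replicate 2 minus the median of the other 17 arrays (vertical axis) for each gene, by gene list (horizontal axis); the 10 genes are labelled members, and filled points are genes for which this array was the highest of 18. Stc2 lies 5.61 and Asns 3.70 above the other arrays' median, and no ER chaperone or sensor is filled.

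Every 12-week comparison includes this array on the saline side. Without it, the 12-week difference was 0.56 for Ddit3 (adjusted p = 0.539), 0.51 for Atf3 (adjusted p = 0.368), 0.50 for Trib3 (adjusted p = 0.354) and 0.44 for Asns (adjusted p = 0.672). It was -0.98 for Psat1, -1.11 for Sesn2 and -0.10 for Atf4, so 6 of the 10 genes stood higher, with a median of 0.22, and 0 passed. Leaving out other arrays lowered some of these differences. Without saline replicate 3 at 12 weeks, that of Atf3 was 0.086. Without cadmium replicate 2 at 12 weeks, that of Ddit3 was 0.29 and that of Trib3 was 0.058. The tRNA synthetases, at 4 of 12 higher with saline replicate 2, were at 11 of 12 higher without it, with a median of 0.15. Amino acid synthesis and supply, at 4 of 17 higher with this array, were at 10 of 17 without it (median 0.09). ER chaperones and ERAD, at 12 of 19 with it, were at 4 of 19 (median -0.08). The array was singled out for its high values of tRNA synthetases and amino acid genes. Leaving out a gene's highest saline value must raise its difference, so the rise of those lists is no separate result. Slc7a11 still passed (1.98, adjusted p = 0.0321), Gdf15 was at 1.59 (adjusted p = 0.137) and Stc2, at -2.07 with the array, was at -0.19 without it. Over all genes 44 passed without it.

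The gene whose signal ran most like each of the 10 over the 18 arrays was found among 13984 others with a mean above background (13985 for Chac1), as a description of arrays that share groups and cell makeup. Asns was nearest to Slc6a9 (r = 0.95) and Trib3 to Eif4ebp1, a brake on translation that ATF4 induces (r = 0.87), both of them on the pathway lists. Saline replicate 2 at 12 weeks held the highest value of Asns, Slc6a9 and Eif4ebp1. Sesn2 was nearest to Parp16 (r = 0.93), which encodes an ER membrane enzyme, Xbp1 to Plxdc2 (r = 0.93) and Atf3 to Nop58, of small nucleolar RNA particles (r = 0.89). Herpud1 was nearest to Ifrd2 (r = 0.88), Chac1 to Arhgef37 (r = 0.87), Atf4 to Fubp1 (r = 0.86) and Ddit3 to Abcc1 (r = 0.76). Chac1 was above background in only 1 of 18 arrays and Arhgef37 averaged 4.30, so their r rests largely on signals near background.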

How the data were processed

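Kidney RNA of 18 samples, in 6 groups of 3, was measured on Affymetrix arrays. The table deposited by the authors holds 1 log2 signal for each probe set and array, judged from the values. Its summarisation and normalisation are not given in the sources used here, and detection calls were not used. Arrays have no read depth, so precision rests on their number and on how far a signal exceeds background. Of 70570 probe sets, 23437 named 1 gene by the platform annotation, with symbols updated through RefSeq for 20898 of 21022 Entrez identifiers. The brightest stood for its gene, which gave 22084 genes. Group means of all 18 arrays were fitted in limma 3.58.1 (R 4.3.3, data.table version 1.17.8; lmFit, contrasts.fit, eBayes). The residual degrees of freedom were 12 and the prior added 2.45. Tests were two-sided, with Benjamini-Hochberg adjustment over all genes within a contrast and a threshold of 0.05. Intervals are 95% intervals of the moderated fit. No dim genes were left out. The height of Slc7a11 over background is its mean in cadmium kidneys at 12 weeks minus background. The fit was run on simulated data with independent normal noise and the same spread of a gene in every group. The measured spread differs between groups, as for Asns (SD 0.09 to 2.04), so that run does not show how the fit does on these arrays. Figures and promoter searches used Python 3.11.15, matplotlib 3.10.9, pandas 2.3.3 and numpy 2.4.6.

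The genes, lists and background level were chosen with earlier results of these data known. The text names all 10 genes, the pathway genes that passed and otherwise the 3 genes of each list with the smallest p at 6 and at 12 weeks, and for each of the 10 the most correlated gene. Any other named gene is said to have been chosen after its values were seen, or is a pathway gene given for context. Of the listed pathway genes Manf was not used here. Alternatives were other scalings, array weights, a replicate block, a filter on dim genes, another prior, other uses of probe sets, the proximal tubule signal as a covariate, only the 6 arrays compared, and leaving out each array. Replicate numbers were checked for pairing: deviations from group means correlated at -0.469 to 0.433 for the same number (2 of 9 over 0.1) and -0.528 to 0.515 for different numbers (6 of 18 over 0.1), so numbers were not taken to pair samples. The p-values measure the spread between labelled biological replicates, pooled over the 6 groups.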

Additional observations from a re-analysis of the deposited data

How the results depend on the processing

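No gene of the 10 passed at any time under any alternative for cadmium against saline. In 477 recomputed differences of the 10 genes, 448 kept their direction and 29 reversed. Other settings reversed small differences: at 12 weeks Chac1 was at -0.057 with median centring, -0.046 with quantile normalisation and -0.035 with array weights, and Xbp1 was at 0.13 with array weights; at 6 weeks Ddit3 was at 0.013 with median centring; at 1 day Xbp1 was at -0.035 with quantile normalisation. Leaving out 1 array at a time reversed others. At 1 day the ranges were -0.0039 to 0.26 for Atf4, -0.17 to 0.015 for Chac1, -0.086 to 0.37 for Xbp1, -0.46 to 1.05 for Sesn2 and -0.80 to 0.083 for Psat1. At 6 weeks they were -0.10 to 0.030 for Ddit3, -0.14 to 0.0010 for Trib3, -0.054 to 0.73 for Sesn2 and -0.40 to 0.18 for Psat1. At 12 weeks they were -0.17 to 0.019 for Atf4, -0.26 to 0.54 for Chac1, -1.51 to 0.44 for Asns, -0.30 to 0.32 for Xbp1, -0.14 to 0.40 for Herpud1, -0.50 to 0.061 for Dnajc3, -0.63 to 0.029 for Sars1 and -0.62 to 0.093 for Gars1. For Asns, Sars1 and Gars1 the array was saline replicate 2, for Xbp1 saline replicate 1, for Atf4 cadmium replicate 3, for Herpud1 cadmium replicate 2 and for Dnajc3 cadmium replicate 1.

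Between saline times the number of the 10 genes that passed was 0 to 1 when 1 array was left out. Over all genes, 9 passed at 6 weeks, against 500 with array weights, 14 with a trended robust prior, 4 with every probe set tested, 40 with only the 6 arrays compared, and 2 to 32 with 1 array left out. At 12 weeks 72 passed, against 43 with median centring, 127 with array weights, 143 with every probe set, 0 with only the 6 arrays, and 33 to 108 with 1 array left out. With the replicate number as a block, 3 genes passed at 6 weeks and 52 at 12 weeks, and 0 of the 10 genes passed in any contrast; the numbers are not shown to pair samples. Slc7a11 did not pass with only the 6 arrays (adjusted p = 0.486), Eif2ak2 passed at 6 weeks with array weights (0.65, adjusted p = 0.0151), and Gdf15 passed at 12 weeks without cadmium replicate 3 (1.71, adjusted p = 0.0344). With only the 6 arrays the spread rests on fewer samples. For Slc7a11 the SE was then 0.46, larger than in the fit of all 18 arrays, where groups under background share in the spread. Its SD was 0.92 in cadmium kidneys at 12 weeks and 0.02 to 0.29 in the other groups, all of them under background. For the other settings the cause was not tested. With dim genes left out, Chac1 and Slc7a11 have no value. Signals of Atf3, Trib3 and Chac1 near background limit what can be read from them.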
